A study of Mus musculus with 11 samples.

Results

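Livers of mice given Sorafenib for 83 d, called long-term here, were set against livers of mice given vehicle for 14 d. The members were chosen by the source label of each sample, which gave 7 arrays of the 11 in the series: 4 long-term arrays and 3 vehicle arrays. The other 4 arrays were livers treated with Sorafenib for 14 d. Total RNA of whole liver lysates was labelled with biotin and measured on Illumina bead arrays, 1 sample to an array, with an intensity for each of 26512 probes.

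All mice were of the C57BL6n strain and the iAST line, and their livers were labelled tumour liver. Long-term mice received Sorafenib by mouth at 60 mg/kg for 83 d, the other treated mice received the same dose for 14 d, and vehicle mice received an equal amount of vehicle solution for 14 d. The labels give an age of 12 to 15 weeks for every sample and do not say whether this is the age at the start of treatment or at the end. As background from outside the labels, the iAST line is known for a large T antigen oncogene behind the albumin promoter, which is active in hepatocytes. All groups are of this line, and none is a liver without it. No vehicle livers of 83 d were analysed here, and drug, length of treatment, age and stage of the tumours therefore cannot be told apart in this comparison. Nothing in the labels ties each array to its own mouse. The p-values therefore cover the spread between these samples only, and that spread may be technical.

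Sorafenib is a multikinase inhibitor used in hepatocellular carcinoma. It blocks RAF kinases, which pass growth signals from RAS to MEK and ERK, and the VEGF and PDGF receptors, through which tumours recruit and keep blood vessels. In a whole liver lysate the RNA of tumour cells, other hepatocytes, vessels, stroma and immune cells is pooled, so that fewer cells of a type and less RNA per cell cannot be told apart. The files do not pair the probes with genes and no table used here names them. Genes, pathways and cell type markers were therefore not analysed here, and the label tumour liver was not checked against marker genes. Transcripts are described by their behaviour, and the first pair of probes in each direction by their Illumina identifiers.

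The long-term livers lay apart from the vehicle livers. Levels are given as log2(intensity + 16) after quantile normalization. Over the 13256 probes with the higher mean level, the first principal component of the 7 arrays held 50.1% of the variance. It placed the long-term livers at 16.9, 14.2, 10.2 and 13.6 (replicates 1 to 4), against -17.4, -14.0 and -23.4 for the vehicle livers (replicates 1 to 3). The second component held 18.4% and ran within the groups, with long-term replicate 3 at -11.6 and the other long-term livers at 1.18 to 7.11, and with vehicle replicates 2 and 3 at -17.1 and 12.3. As a measure of distance, the SD of the log2 difference between a long-term and a vehicle liver was 0.31 to 0.39 over the 12 pairs. It was 0.17 to 0.26 between long-term livers and 0.22 to 0.30 between vehicle livers. Every pair across the groups lay further apart than any pair within one, but the margin was narrow. Long-term replicate 3 and vehicle replicate 2 were at 0.305, against 0.303 for vehicle replicates 2 and 3. All 7 arrays were on the same chip. Long-term arrays occupied its positions B to E and vehicle arrays F to H, so that position and group cannot be told apart.

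The comparison asks which liver transcripts differed after long-term Sorafenib. Of the 26512 probes, 418 rose and 345 fell (limma, adjusted p under 0.05), or 1.58% and 1.3% of all probes and 2.88% together. The rises were larger than the falls at the far end of the range: 108 rises (0.407% of all probes) and 53 falls (0.2%) were at least 2-fold, 23 rises and 3 falls at least 4-fold, and 6 rises and no fall at least 8-fold. The middle of the lists differed less. The quartiles of the log2 fold change were 0.49 and 1.01 for the rises and -0.78 and -0.42 for the falls. The median over all 26512 probes was -9.61e-04, close to 0 as the normalization sets it. No test of the difference between rises and falls was made.

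**Figure D1:**
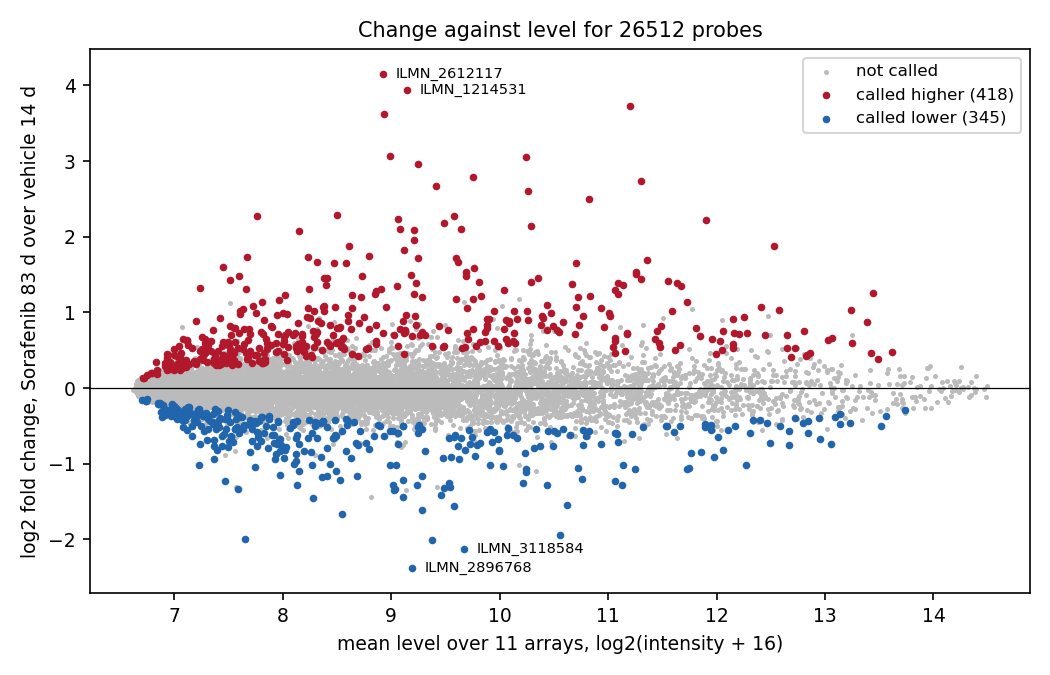
Log2 fold change of long-term Sorafenib over vehicle (vertical axis) against the mean level over the 11 arrays (horizontal axis, log2(intensity + 16)), 1 point a probe. The 418 rises in red reach further from 0 than the 345 falls in blue, with 6 rises and no fall at 8-fold or more.

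The number of calls depended on the arrays included, and the largest changes did so less. Without vehicle replicate 1, 264 probes rose and 219 fell, and without vehicle replicate 3, 283 rose and 213 fell. Without long-term replicate 2 the falls numbered 209, beside 319 rises. The count did not always drop: without vehicle replicate 2, 376 rose and 384 fell, and without long-term replicate 3, 436 rose and 344 fell. Each of these fits also had fewer samples, so a lower count cannot be ascribed to a particular liver. Of the 763 probes, 335 (210 rises and 125 falls) were called whichever of the 7 arrays was left out. Among changes of at least 2-fold this held for 92 of 108 rises and 40 of 53 falls, and among smaller changes for 118 of 310 rises and 85 of 292 falls.

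The calls covered the range of liver transcript levels, and their share was higher among brighter probes. Of 16353 probes with a mean level under 7, where most of the signal is background, 18 rose and 21 fell, 0.238% together. The shares were 5.51% at levels of 7 to 8, 7.56% at 8 to 10, 9.66% at 10 to 12 and 14.3% at 12 and over. At 7 to 8 rises and falls were nearly equal in number, at 132 and 134, and at 8 to 10 there were 161 rises and 112 falls. Among the 406 brightest probes 31 rose and 27 fell. Detection calls were not used here. Because a background remains in every intensity, the fold change of a dim probe understates the change of its transcript.

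**Figure D2:**
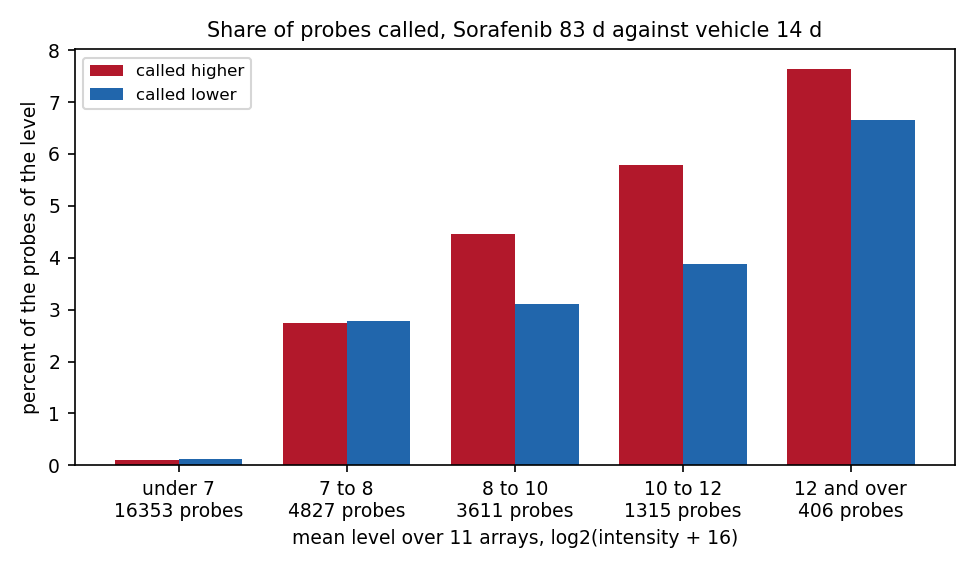
Percent of probes called higher (red) and lower (blue) in long-term against vehicle livers, for 5 ranges of the mean level over the 11 arrays. The share called in either direction runs between 0.238% under a level of 7 and 14.3% at 12 and over.

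Some changes began or ended at a dim level. In 154 of the 418 rises the vehicle mean was under 7.61, the upper quartile of all probe levels, and in 133 of the 345 falls the long-term mean was. The level of the other group was not checked here, so some of these probes may be dim in both groups. Of the 23 rises of at least 4-fold, 7 had a vehicle mean under that level. The other 16 were already measured above it in vehicle livers.

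The measured intensities of the probes that did not pass were bounded rather closely. The median half-width of the 95% confidence interval of a log2 fold change was 0.11 over all probes and 0.28 at levels of 8 to 10. Of the 25749 probes that were not called, 25621 (99.5%) had an interval that lay wholly within a 2-fold change in either direction. For the 16314 uncalled probes under a level of 7, all of which had such an interval, the bound holds for the measured intensity and not for the transcript. The same limit applies to the dim probes at levels of 7 to 8, where 4548 of 4561 uncalled probes had such an interval. At levels of 10 to 12, 1141 of 1188 uncalled probes had one.

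Probe ILMN_2612117 had the largest rise. Its levels were 10.90, 10.94, 11.64 and 12.20 in long-term replicates 1 to 4, against 7.22, 7.63 and 6.94 in vehicle replicates 1 to 3. These levels correspond to deposited intensities of 1874, 1952, 3193 and 4664 in long-term livers and of 135, 185 and 107 in vehicle livers. All long-term livers were far above all vehicle livers, and long-term replicates 3 and 4 were the highest. The log2 fold change was 4.15 ± 0.25 (SE) with a 95% interval of 3.62 to 4.68 (limma adjusted p = 9.26e-09). Its vehicle level was close to the background, so that this interval holds for the intensity and the change of the transcript is understated. With a background correction the value was 5.21, above that interval. The probe stood above 97.6% of all probes in long-term livers and above 69.2% in vehicle livers.

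ILMN_1214531 had the second largest rise and another order among the treated livers. Its levels were 12.12, 11.78, 10.86 and 10.93 in long-term replicates 1 to 4, against 8.10, 7.10 and 7.25 in vehicle replicates 1 to 3. Here long-term replicates 1 and 2 were the highest, with deposited intensities of 4511 and 3531, and the groups again did not overlap. The log2 fold change was 3.94 ± 0.35 (SE), with a 95% interval of 3.21 to 4.67 (limma adjusted p = 1.73e-06). Its vehicle level was likewise dim, and with a background correction the value was 4.83.

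The next 10 rises, unnamed here, were between 5.63- and 13.2-fold, with limma adjusted p of at most 9.10e-04. The third was the brightest and among the most even, at 13.40, 13.17, 13.35 and 13.58 in long-term livers, against 9.78, 9.64 and 9.51 in vehicle livers. The twelfth was the most even of the 12 among long-term livers, at 11.80 to 12.06, against 8.96 to 10.07 in vehicle livers. The fourth and the sixth were the most uneven. The fourth was at 12.04, 11.30, 8.92 and 10.61 in long-term replicates 1 to 4, against 6.89 to 7.22 in vehicle livers. The sixth was at 12.95, 12.44, 10.19 and 11.37, against 8.59 to 8.87 in vehicle livers. Both were highest in long-term replicate 1 and lowest in replicate 3, where the fourth rise was 3.11 lower on the log2 scale than in replicate 1. These differences between livers on the same drug and dose were larger than the whole spread of the vehicle livers.

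The largest falls were smaller, and part of their size came from 1 vehicle liver. ILMN_2896768 was at 7.87, 7.84, 8.77 and 8.35 in long-term replicates 1 to 4, against 9.98, 9.77 and 12.03 in vehicle replicates 1 to 3. Vehicle replicate 3, with a deposited intensity of 4067 against 994 and 867 in the other vehicle livers, stood well above them. The log2 fold change was -2.38 ± 0.37 (SE), with a 95% interval of -3.16 to -1.60 (limma adjusted p = 7.77e-04). Without vehicle replicate 3 it was -1.66 (limma adjusted p = 5.37e-04).

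ILMN_3118584 was at 8.94, 9.14, 9.61 and 8.14 in long-term replicates 1 to 4, against 10.93, 10.32 and 11.99 in vehicle replicates 1 to 3. The groups did not overlap, and vehicle replicate 3 was again the highest liver. The log2 fold change was -2.12 ± 0.36 (SE), with a 95% interval of -2.88 to -1.37 (limma adjusted p = 0.00161), and without vehicle replicate 3 it was -1.67. The third fall followed the same livers, at 8.64, 8.57, 9.45 and 8.18 in long-term livers, against 10.82, 9.91 and 11.42 in vehicle livers.

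The other large falls were of several kinds. The fourth fall was the tightest, at 6.94 to 7.10 in long-term livers, close to the median level of all probes of 6.84, against 8.60 to 9.40 in vehicle livers. It fell by 1.999 ± 0.126 (SE) on the log2 scale (limma adjusted p = 9.44e-09). The fifth fall was the most uneven among long-term livers, at 9.49, 9.76, 10.38 and 8.34, against 11.28, 11.61 and 11.43 in vehicle livers. The sixth to twelfth falls were between 2.67- and 3.16-fold. All 24 of these rises and falls were called whichever of the 7 arrays was left out.

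**Figure D3:**
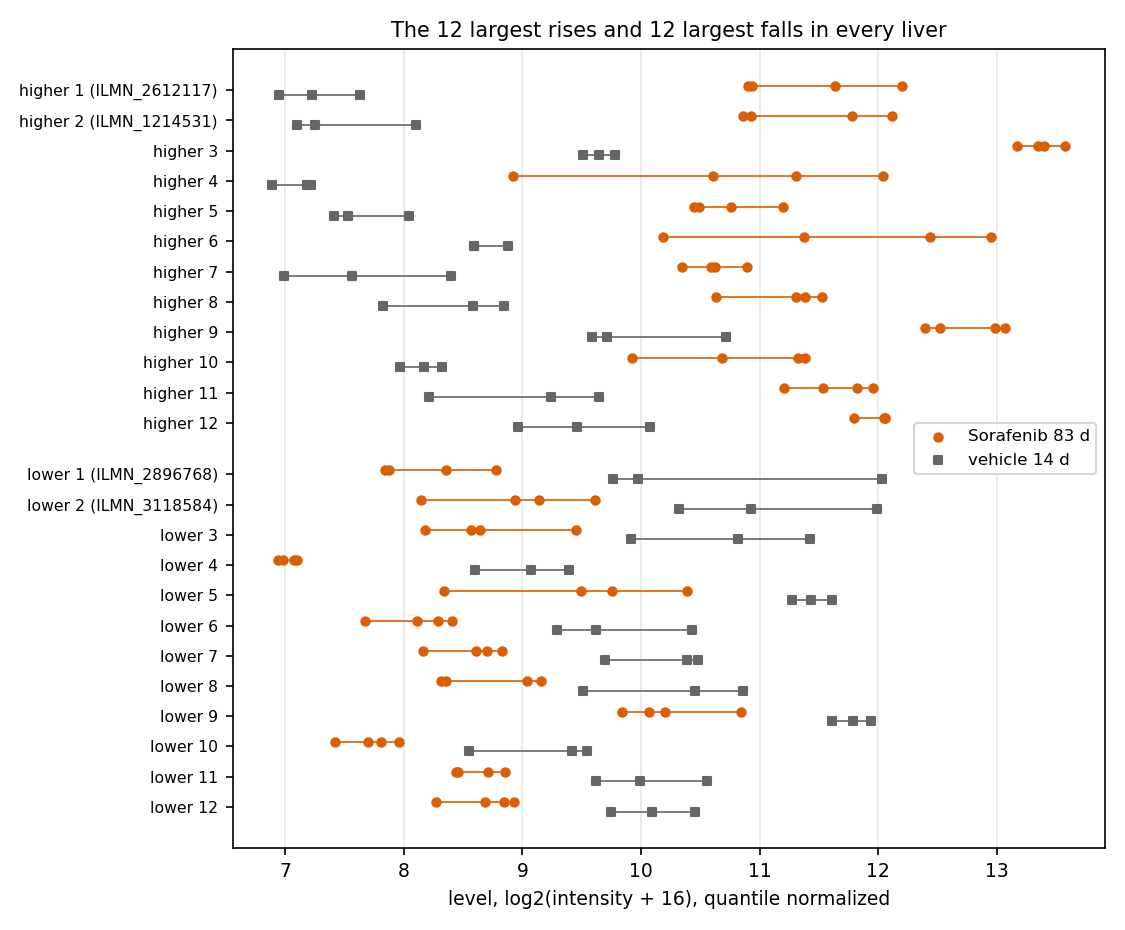
Levels (horizontal axis, log2(intensity + 16)) of the 12 largest rises and the 12 largest falls in the 4 long-term livers (orange circles) and the 3 vehicle livers (grey squares). A line spans each group. The fourth and sixth rises are spread most among long-term livers, and vehicle replicate 3, at 12.03, stands apart in the first fall.

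The livers of a group also differed among themselves in these transcripts. The median SD of the rises was 0.19 over long-term livers, against 0.14 over vehicle livers. For the falls it was 0.13 over long-term livers, against 0.17 over vehicle livers. Over all calls of a direction the group with the higher level thus had the wider median spread. Spread varies with level, and at mean levels of 8 to 10 the median SD over long-term livers was 0.25 for 161 rises, 0.18 for 112 falls and 0.14 for 3338 uncalled probes. Over vehicle livers it was 0.17, 0.21 and 0.15 for the same probes. At levels of 12 and over the order was the other way. There the rises had 0.155 over long-term and 0.161 over vehicle livers, and the falls 0.142 and 0.0801. These spreads were not tested against each other. In 43 of the 418 rises the long-term livers spanned at least 2-fold, and in 68 their span exceeded the log2 fold change of the probe itself. Among the 345 falls these numbers were 18 and 33.

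Long-term replicate 1 most often had the highest level among the rises and replicate 3 most often the lowest. Replicate 1 was the highest long-term liver in 158 of 418 rises (37.8%), against 24.6% of all probes, and replicate 3 the lowest in 167 (40.0%), against 26.2% of all probes. Among vehicle livers, replicate 2 was the highest in 197 rises (47.1%), against 35.1% of all probes. In the falls, vehicle replicate 3 was the highest vehicle liver in 175 of 345 (50.7%), against 34.2% of all probes. These probes were chosen with the same arrays, so the counts describe the calls and were not tested.

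The arrays of both groups did not overlap in 402 of the 418 rises and 328 of the 345 falls. Over all probes the share without overlap was 12.2%, 5.84% with long-term higher and 6.31% with long-term lower. Since the rises and falls were called on the same values, nothing further is read from their separation.

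The share of signal held by these probes shows their weight in the summed intensity of an array. The 418 rises made up 7.19%, 6.58%, 6.16% and 6.91% of the summed deposited intensity of long-term replicates 1 to 4, against 3.42%, 3.87% and 3.32% in vehicle replicates 1 to 3. The mean was 6.71% ± 0.44 in long-term livers (SD, n = 4) and 3.53% ± 0.29 in vehicle livers (SD, n = 3). The 345 falls made up 3.15% ± 0.13 in long-term livers (SD, n = 4) and 4.97% ± 0.28 in vehicle livers (SD, n = 3). Both shares include the background of each probe, and the probes were chosen for the difference, so the values are a description.

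**Figure D4:**
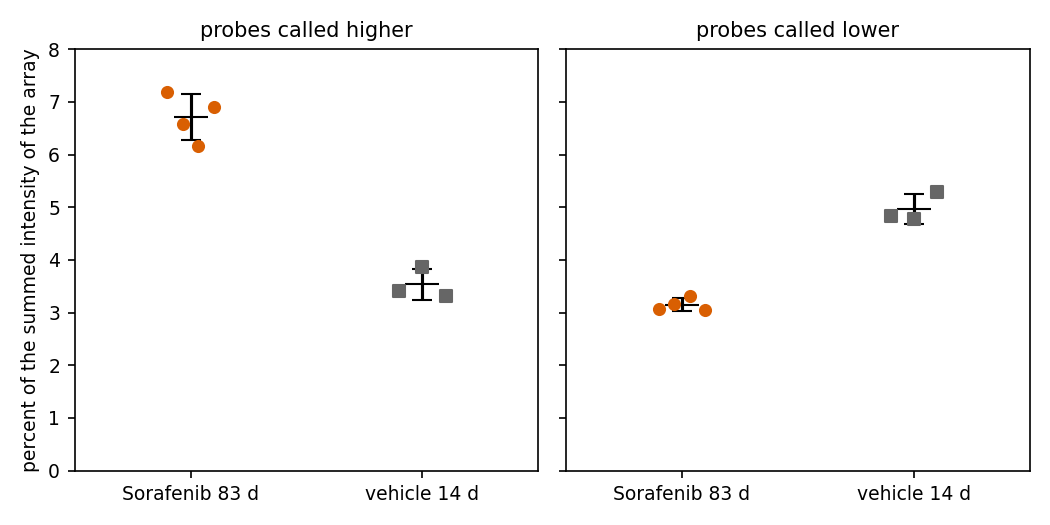
Percent of the summed intensity of an array held by the 418 probes called higher (left) and the 345 called lower (right), with 1 point an array, and the mean and SD of each group. The rises hold 6.16% to 7.19% in long-term and 3.32% to 3.87% in vehicle livers.

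The changes were also present in arrays that had no part in choosing the probes, apart from the normalization. The labels do not say whether such an array came from a mouse of its own. Position on the chip and length of treatment differed within every pair as they did between the groups. The fit was repeated without 1 long-term and 1 vehicle array, for each of the 12 such pairs, and the chosen probes were then read in the pair left out. Of the 184 to 441 probes chosen as higher, 85.3% to 100% were higher in the long-term liver of the pair, against 48.0% to 49.9% of all probes. Of the 141 to 385 chosen as lower, 80.6% to 93.7% were lower in the long-term liver, against 50.02% to 51.9% of all probes. In long-term replicate 1 and vehicle replicate 1, for example, 190 of the 190 probes chosen as higher were higher in the long-term liver.

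The change was mostly smaller in these pairs than in the livers that chose the probes. The median log2 difference of probes chosen as higher was 0.42 to 1.03 over the 12 pairs, against medians of 0.78 to 0.93 in the livers that chose them. For probes chosen as lower it was -0.59 to -0.31, against -0.83 to -0.61. It was smaller than in the choice in 10 of the 12 pairs for the rises and in 12 of 12 for the falls. Each pair read its own list of probes, and the pairs share livers, so that the medians do not compare one liver with another.

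**Figure D5:**
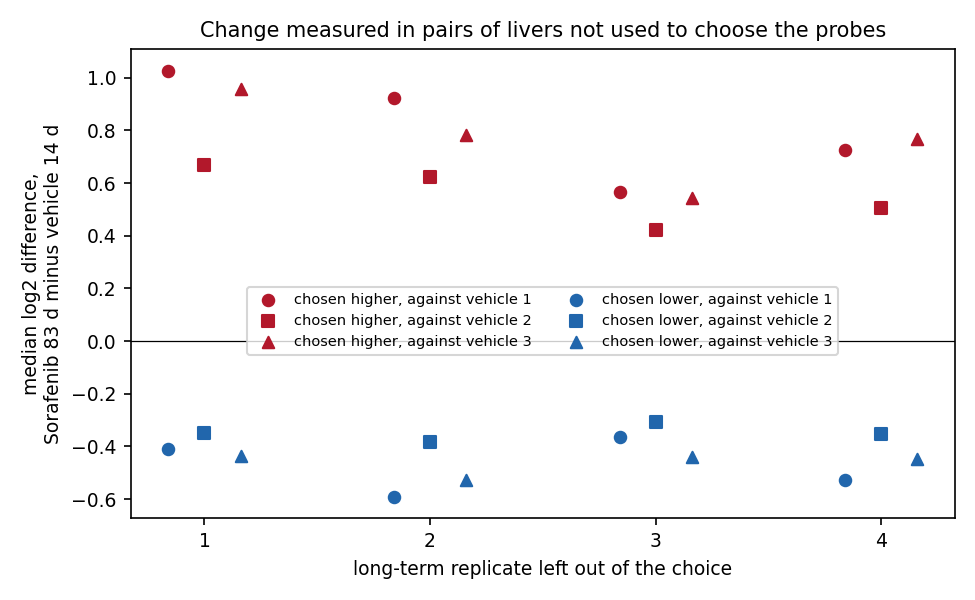
Median log2 difference between a long-term and a vehicle liver (vertical axis) in probes chosen as higher (red) or lower (blue) without either liver, by long-term replicate (horizontal axis) and vehicle replicate (symbol). All 12 medians of the rises are above 0, between 0.42 and 1.03, and all 12 of the falls below 0.

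Over these probes the livers treated for 14 d lay between the groups. The median difference from the vehicle mean over the 418 rises was 0.64 to 0.74 in the 4 long-term livers, and 0.27, 0.30, 0.23 and 0.12 in 14 d replicates 1 to 4. Over the 345 falls it was -0.57 to -0.53 in long-term livers, and -0.41, -0.36, -0.37 and -0.29 in 14 d replicates 1 to 4. All these values share the vehicle mean, the probes were chosen on long-term and vehicle livers, and the difference between rises and falls was not tested. Replicates 1 to 3 of 14 d were on a second chip, and replicate 4, which shared the chip of the other groups, was the nearest to vehicle in both directions, at about the middle between the groups for the falls.

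The 12 largest rises had lower mean levels in 14 d livers than in long-term livers. The groups overlapped in the fourth and sixth rises. There 14 d replicate 3 was at 9.85 and 11.20, against 8.92 and 10.19 in long-term replicate 3. ILMN_2612117 was at 7.98, 7.17, 7.78 and 7.82 in 14 d replicates 1 to 4, all below the lowest long-term liver. Long-term exceeded 14 d by 3.73 ± 0.24 (SE) on the log2 scale for this probe. Of the 12 largest rises, 12 were also higher in long-term than in 14 d livers in the same fit, in which 1.43% of all probes passed. The second chip held only 14 d livers, so with a chip term only 14 d replicate 4 is set against long-term livers. Against that liver the 12 differences ran between 1.58 for the sixth rise and 4.04 for the second. They rest on 1 liver of 14 d, so they neither uphold nor undo the 12 calls against all 14 d livers. Among the 12 largest falls, 3 (the fifth, the eighth and the twelfth) were lower in long-term than in 14 d livers. Against 14 d replicate 4 alone these 3 differed by -1.51, -1.29 and -1.17. The seventh fall, not called against all 14 d livers, differed by -1.35. These values again rest on 1 liver and do not uphold the 3 calls. Several differences of the falls were larger against that liver than against all 14 d livers. For ILMN_2896768 long-term minus 14 d was -1.49 against that liver and -0.90 against all of them. For ILMN_3118584 the values were -1.37 and -0.37. Neither probe was called against all 14 d livers. How far the largest falls had come at 14 d therefore depended on which 14 d livers were read. An effect of the chip and a trait of that liver cannot be told apart. The counts use long-term arrays on which the 12 were chosen, which favours the calls.

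At 14 d the largest falls took different courses. The fourth fall was at 7.18 to 7.37 in all 4 livers of 14 d, near its long-term level of 6.94 to 7.10. The fifth was at 10.66 to 11.09, above its long-term level of 8.34 to 10.38 and under its vehicle level of 11.28 to 11.61. ILMN_3118584 was at 9.18, 8.93 and 8.88 in 14 d replicates 1 to 3, within the range of long-term livers. Replicate 4 of 14 d, at 10.32, lay apart from these. Its deposited intensity was 1240, against 1279 in vehicle replicate 2, which had the same level after normalization.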

How the data were processed

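Each probe had 1 deposited intensity per array, whose range shows a linear scale. How the authors corrected the background and normalized is not given in the sources used here. Intensities began at 74.1 and array medians were 98.7 to 99.9, so a background remained. An offset of 16 was added, log2 taken and the 11 arrays quantile normalized. Groups came from the source labels. Limma 3.58.1 in R 4.3.3 was fitted to all 11 arrays in 3 groups with an intensity trend. Tests were two-sided, with Benjamini-Hochberg adjustment over 26512 probes and a threshold of 0.05. The fit was also run on simulated data with known changes and independent noise for each probe. Those data held no effect of chip, position or liver, so the run checks the code and not the calls. Figures used matplotlib 3.10.9 in Python 3.11.15.

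The rule for naming took the 12 largest rises and 12 largest falls among calls whose arrays did not overlap, and printed the identifiers of 2 in each direction because no genes are named. The gene lists of the plan were not analysed here. The comparison, lists and rule were chosen with earlier results of these data known. Alternatives changed the offset, background, normalization, probe filter, arrays, trend, weights, chip and replicate block and left out each array. The pairs left out of the choice were added after the data were seen. The number of arrays limits the precision.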

Additional observations from a re-analysis of the deposited data

Results flagged for a closer look

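For a pair of probes the long-term livers differed from the 14 d livers by a test of the difference itself. In log2 units, ILMN_2612117 was higher in long-term livers than in 14 d livers by 3.73 ± 0.24 (SE; limma adjusted p = 1.95e-08). ILMN_1214531 was 3.30 ± 0.32 (SE) higher (limma adjusted p = 5.81e-06). Both probes were chosen for their rise on the same long-term arrays, which favours these p-values. With the chip as a term, which leaves only 14 d replicate 4 to compare with, the differences were 3.60 and 4.04. A search for 1 array far from the rest of its group (Dixon's test) covered 11 sets of 4 arrays (the 4 named probes in long-term and 14 d livers, and the intensity shares and array medians of long-term livers), and it picked out none. In sets of 4 arrays this test can pick out only a very extreme array, so that finding none says little. The groups of 3 vehicle livers were not tested.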

How the results depend on the processing

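Counts of rises and falls stayed within 1.5 times the 763 calls, 418 higher and 345 lower, under all 12 alternatives that kept every long-term and vehicle array. They ranged between 660 without the intensity trend, 517 of them shared with the 763, and 928 with arrayWeights. With median centring 386 probes were higher and 397 lower. With the 7 compared arrays alone, 678 passed, 623 of them shared. Leaving out 1 array gave 483 to 780 calls, 264 to 436 higher and 209 to 384 lower, with fewer samples in each fit. Of the 763, 320 were called under all 19 alternatives. The 4 named probes kept direction and call under all 19: ILMN_2612117 at 3.88 to 5.21, ILMN_1214531 at 3.70 to 4.83, ILMN_2896768 at -2.79 to -1.66 and ILMN_3118584 at -2.50 to -1.67 on the log2 scale, the highest values of both rises coming with a background correction. The labels do not say that a replicate number marks a shared mouse or day, and deviations of same-numbered livers correlated at 0.119, 0.0227 and -0.0789, so the numbers were not taken as pairs. With the replicate block 768 probes passed, 426 higher and 342 lower, 657 of them shared, and long-term replicate 3 deviated most like vehicle replicate 2 (0.209).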
